A study of Homo sapiens with 5 samples.

Results

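Centrosome genes in HLF cells were taken by symbol. The symbols were those made of CEP, a number and at most 1 further letter, together with PLK4, STIL, SASS6, CENPJ, TRIM37, PCNT, CDK5RAP2, NEDD1 and NINL. Among genes listed in all 3 deposited tables, the rule found 43. Of these tables, 1 lists 11102 genes and the others 12342. HLF is an established hepatocellular carcinoma line. The series holds 5 conditions with 1 sample each. USP28-Ctrl are HLF cells made with a control guide RNA (sgCtrl), and USP28-KO cells were made with CRISPR and a guide RNA against the deubiquitinase USP28 (sgUsp28). The other conditions are USP28-KO cells with the lentiviral vector pRRL-Ctrl, with USP28-WT (pRRL-Usp28-WT) or with USP28-M (pRRL-Usp28-Mono), a mutant allele that does not dimerize. All cells of these last conditions thus derive from USP28-KO cells, and no sample is labelled as treated with a drug. By the paper's methods, knockout cells were selected with puromycin. Lentiviral transduction used polybrene and was followed by antibiotic selection. Transduction and this selection set the last conditions apart from USP28-Ctrl and USP28-KO. Knockout cells were grown from single clones, so a difference between clones and the loss of USP28 cannot be told apart, and how many clones were sequenced is not given in the sources used here.

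The centrosome organizes microtubules. It holds a pair of centrioles in a pericentriolar matrix, and in cycling cells each centriole templates a single new centriole once per cycle. The kinase PLK4 starts this step by acting on STIL, after which SASS6 builds the cartwheel at the base of the new centriole. When centrosomes are lost or mitosis is prolonged, USP28 and 53BP1 (TP53BP1) act together to halt the next cell cycle, which is known as mitotic surveillance. TRIM37, a ubiquitin ligase that limits ectopic pericentriolar foci, sets how well cells divide without centrosomes.

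Each table gives a gene 1 average expression value, a log2 CPM, over the libraries of the authors' fit. CPM is the number of reads of a gene per 1000000 reads. The knockout table averages USP28-Ctrl and USP28-KO, and its value is named here the knockout average. Both other tables hold identical averages for every gene, over control vector, USP28-WT and USP28-M, named the reconstitution average. Levels of single conditions or libraries were not analysed here, and the fold change and p columns are the authors' own comparisons and were not used. No spread between replicates and no test between conditions can therefore be given, and nothing below says whether a centrosome gene differed with USP28 status. In total RNA of a culture, fewer cells in a cell cycle phase and less RNA per cell cannot be told apart. Depth was worked out from the steps between the lowest values, which gave about 7690000 reads over all libraries of the knockout table and 30460000 over those of the other fit. Of the genes with the lowest values, 96.6% and 68.0% lay within 0.1 reads of such a step. The step was fitted to these same genes, and some values would lie that near without any step. These shares are therefore no separate check of the depth. Counting error is given below as the half-width of a 95% interval of a difference, and covers the sampling of reads only. Of 10 markers of liver and epithelial or mesenchymal identity, 4 were listed. KRT8, KRT18, VIM and CDH2 were among them, whereas ALB, AFP, APOA1, TTR, EPCAM and CDH1 were not listed, and the label of the line rests on the submitters' word.

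Transcripts of the 43 genes were rich in A and T. The median GC content of their longest transcripts was 41.6%, against 47.5% over 10635 genes listed in every table with a transcript in the annotation, and 33 of 43 lay under that value. Coding sequences were long, with a median of 2892 bases against 1437 over all genes. The stretches below show this composition, because the level of a centrosome gene differed between the averages along with it. Each is 120 bases of 1 coding exon with a G and C share as near as possible to that of the whole coding sequence of the gene, read 5′ to 3′ from GENCODE release 29 (GRCh38), with G and C in capitals. The first 3 genes lay furthest below their knockout average in the reconstitution average, and the last 2 were among those furthest above it.
CEP290: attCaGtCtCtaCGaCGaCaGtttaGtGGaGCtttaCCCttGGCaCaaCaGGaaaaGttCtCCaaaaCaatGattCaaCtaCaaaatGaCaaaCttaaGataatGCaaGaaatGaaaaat
CEP162: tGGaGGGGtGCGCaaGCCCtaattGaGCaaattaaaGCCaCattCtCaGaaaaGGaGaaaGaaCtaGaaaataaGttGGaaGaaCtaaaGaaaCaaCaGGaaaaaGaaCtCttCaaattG
CEP83: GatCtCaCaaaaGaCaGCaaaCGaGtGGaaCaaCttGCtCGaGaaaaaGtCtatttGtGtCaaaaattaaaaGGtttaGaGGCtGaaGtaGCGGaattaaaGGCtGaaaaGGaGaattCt
CEP41: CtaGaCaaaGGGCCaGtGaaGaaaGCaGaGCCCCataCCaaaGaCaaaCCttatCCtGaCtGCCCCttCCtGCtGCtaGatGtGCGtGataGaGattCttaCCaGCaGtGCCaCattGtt
PCNT: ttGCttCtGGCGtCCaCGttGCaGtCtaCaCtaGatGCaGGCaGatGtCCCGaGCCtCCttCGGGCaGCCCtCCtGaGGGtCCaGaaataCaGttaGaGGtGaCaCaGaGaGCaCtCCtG
The stretches lie in coding exons at chr12:88089143-88089262, minus strand, for CEP290, chr6:84174757-84174876, minus strand, for CEP162, and chr12:94378869-94378988, minus strand, for CEP83. The others lie at chr7:130402652-130402771, minus strand, for CEP41, and chr21:46401587-46401706, plus strand, for PCNT. Of their 120 bases, 42 were G or C in CEP290, 45 in CEP162 and 45 in CEP83, against 59 in CEP41 and 68 in PCNT. CEP41 differed in composition between its coding sequence, 49.2% G and C, and its longest transcript, 43.4%. By the latter value it lay under the median of all genes although its reconstitution average was not lower.

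A group of 15 genes was taken under centriole duplication, and it includes factors that restrain this step. Their expression ranged from 4.02 to 6.42 log2 CPM in the knockout average. In the reconstitution average it ranged from 2.57 to 6.04. Per kilobase of transcript, 5 of them in the former and 3 in the latter were at or above the median of all genes. PLK4 (NCBI gene 10733) had a knockout average of 5.80 log2 CPM, about 430 reads, and a reconstitution average of 4.38, about 634 reads. STIL, the PLK4 substrate, stood at 6.42 and 5.72 log2 CPM. SASS6, the cartwheel protein, stood at 4.91 and 3.22, and CENPJ, which sets centriole length, at 4.59 and 3.18. All 4 genes had the higher value in the knockout average. CEP152 and CEP192, the scaffolds that bring PLK4 to the centriole, differed in this respect. CEP152 had 4.57 and 2.57 log2 CPM, and CEP192 6.16 and 6.04. The difference of CEP192, -0.12 log2, was within its counting error of 0.14, whereas the reconstitution average of CEP152 was 3.99-fold lower, with a counting error of 0.30 log2. CEP63, a partner of CEP152, had 4.58 and 3.44 log2 CPM. CEP57 had 5.90 and 5.07. CEP85, which binds STIL, had 5.95 and 5.59. Elongation and conversion factors were also lower in the reconstitution average, as CEP120 had 5.00 and 4.15 log2 CPM, CEP135 5.98 and 4.36, and CEP295 5.35 and 3.97. CEP44 had 4.55 and 3.63 log2 CPM. Of the factors that restrain duplication or cap the centriole, CEP76 had 4.36 and 4.32 log2 CPM and CEP97 4.02 and 3.29. In this group of 15 genes every difference was negative, with a median of -0.92 log2, where 59.9% of all genes had a negative difference and their median was -0.12. The smallest in size, that of CEP76 (-0.039), was within its counting error of 0.25. After correction for GC content, as described below, the median of the group was -0.43, and CEP192 (0.22) and CEP76 (0.19) were positive.

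**Figure D1:**
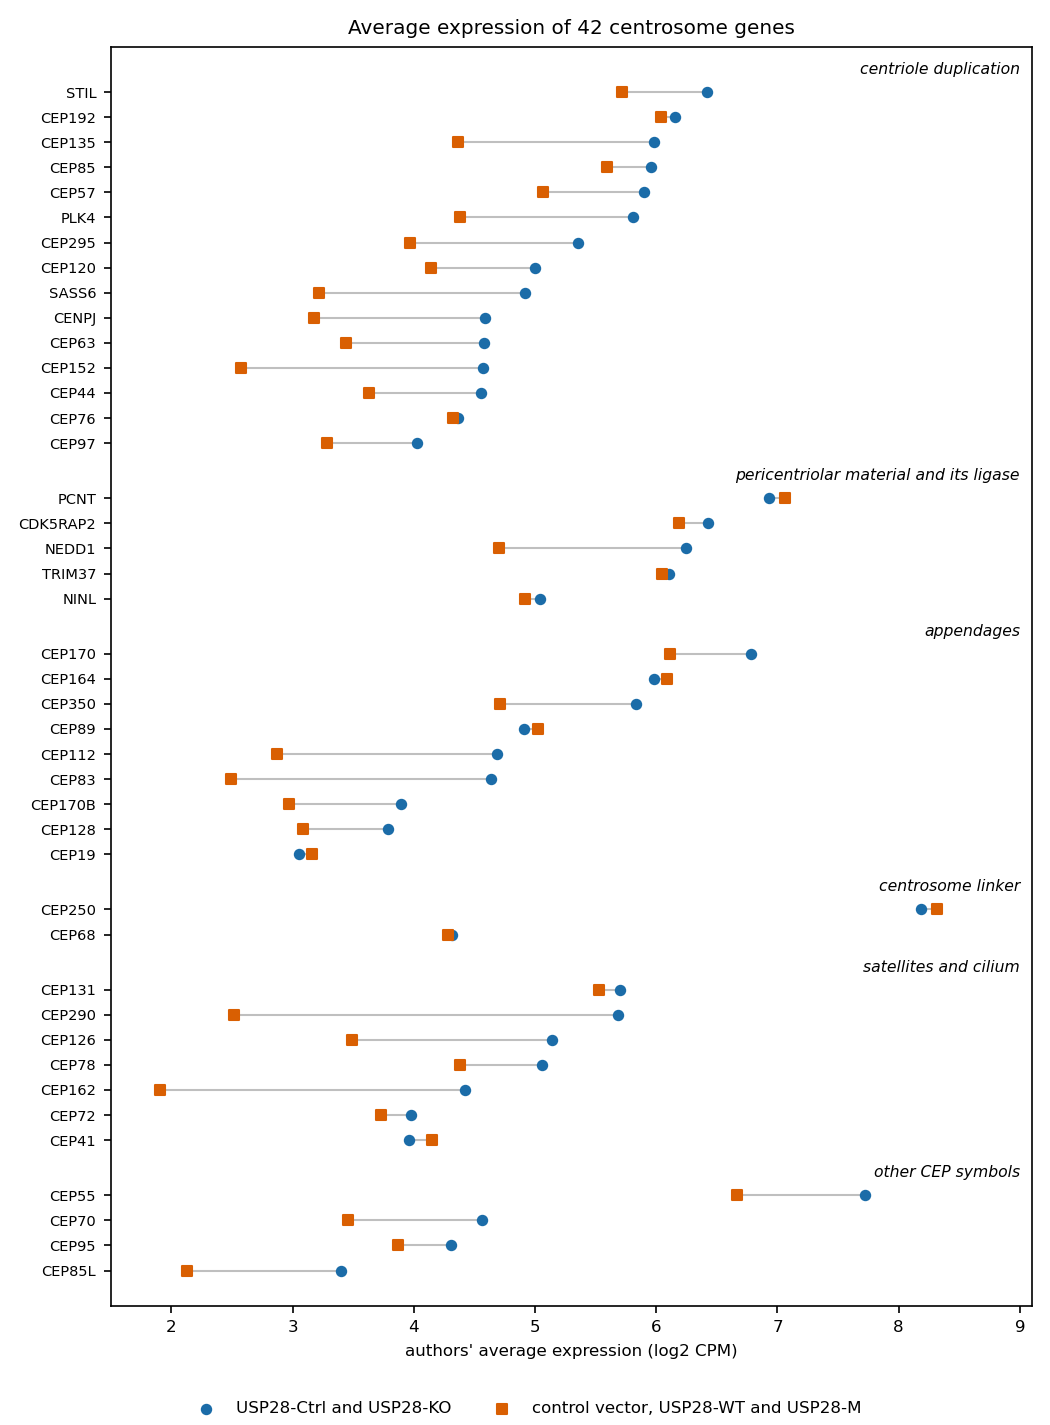
Average expression (x axis, log2 CPM as deposited) of 42 of the 43 centrosome genes by role; circles give the average over USP28-Ctrl and USP28-KO, squares that over control vector, USP28-WT and USP28-M. For 36 of them the square lies to the left of the circle, and CEP290 has the widest gap, from 5.68 to 2.52.

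For most pericentriolar matrix genes the averages lay close together. PCNT, the large scaffold of the matrix, had 6.93 and 7.06 log2 CPM. CDK5RAP2, which activates the gamma-tubulin ring complex, had 6.42 and 6.19. NINL, a microtubule nucleation protein, had 5.05 and 4.92, and TRIM37 had 6.11 and 6.05. The differences of these 4 genes lay between -0.24 and 0.13 log2. Those of TRIM37 (-0.059) and NINL (-0.13) were within their counting errors of 0.14 and 0.20. Those of CDK5RAP2 (-0.24) and PCNT (0.13) exceeded theirs of 0.13 and 0.10. NEDD1, which brings the gamma-tubulin ring complex to the centrosome, was the exception, with 6.24 log2 CPM in the knockout average and 4.70 in the reconstitution average. Its transcript was also the most AT-rich of the 5, at a GC content of 35.5%.

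Appendage genes spread widely. CEP164 and CEP89, distal appendage proteins needed for docking of the mother centriole at the membrane, had 5.98 and 6.09 log2 CPM and 4.91 and 5.02 log2 CPM. CEP83, which acts upstream of both in the same structure, had 4.64 and 2.49. Genes of 1 structure thus differed, as did their GC contents, 39.2% for CEP83 against 52.7% for CEP164 and 50.5% for CEP89. The differences of 0.11 for CEP164 and 0.12 for CEP89 were within their counting errors of 0.14 and 0.21, and that of CEP83 was -2.15 with a counting error of 0.30. Subdistal appendage genes CEP170 and CEP128 had 6.78 and 6.11 log2 CPM and 3.79 and 3.08 log2 CPM. CEP170B, a paralogue of CEP170, had 3.89 and 2.97. CEP350 had 5.83 and 4.71, its partner CEP19 had 3.06 and 3.16, and CEP112 had 4.69 and 2.88. CEP19 rested on about 64 reads in the knockout table, the fewest of any centrosome gene there. Of the centrosome linker genes, CEP250 (C-NAP1) had 8.18 and 8.31 log2 CPM and CEP68 4.32 and 4.28.

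Genes of centriolar satellites and the cilium contained the widest differences. CEP290, a protein of the ciliary transition zone, had a knockout average of 5.68 log2 CPM, about 394 reads, and a reconstitution average of 2.52, about 175 reads. The reconstitution average was 8.95-fold lower. CEP162, which also acts at the transition zone, had 4.42 and 1.91 log2 CPM, 5.73-fold lower. The satellite protein CEP126 had 5.14 and 3.49, and CEP78 had 5.06 and 4.38. The satellite proteins CEP131 and CEP72 had 5.70 and 5.53 log2 CPM and 3.98 and 3.73. CEP41, which is needed for tubulin glutamylation in cilia, had 3.96 and 4.15. The difference of CEP41, 0.19 log2, was the highest of all 43 genes and was within its counting error of 0.29. Among the remaining genes, CEP55, which recruits the abscission machinery to the midbody, had 7.72 and 6.67 log2 CPM. CEP70 had 4.57 and 3.46, CEP95 4.30 and 3.87, and CEP85L, a paralogue of CEP85, 3.40 and 2.13.

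Levels of different genes were compared per length, as log2 CPM per kilobase of the longest transcript. On this scale the centrosome genes lay low among all genes. The median of the 43 was 2.70 in the knockout average, against 3.48 for all 10749 genes with a length, and 2.01 in the reconstitution average, against 3.09 for 11788 genes. Of the 43, 13 were at or above the median of all genes in the knockout average and 12 in the reconstitution average. With coding length in place of transcript length these counts were 4 and 3, and without length scaling they were 19 and 15. The longest transcripts of the 43 genes had a median of 5225 bases, against 3739 over all genes, so the low place depends on the length used. CEP55 had the highest level per kilobase in both averages, 6.32 and 5.27 log2 CPM per kilobase, at percentiles 92.7 and 85.0 of all genes. By the mean of both averages, CEP250 came next with 4.21 and 4.34, then TRIM37 with 3.99 and 3.93, CEP57 with 4.23 and 3.40, and CEP85 with 3.98 and 3.61. In the knockout average alone CEP57 and NEDD1 (both 4.23) stood above CEP250. The last 5 genes by this mean were CEP85L, CEP97, CEP170B, CEP162 and CEP152. CEP85L was lowest in each, with 0.46 and -0.81 log2 CPM per kilobase, at percentiles 3.22 and 2.36. CEP97 had 0.96 and 0.22, CEP170B 1.12 and 0.20, CEP162 2.06 and -0.46, and CEP152 2.08 and 0.08. Within the duplication trio, STIL had 4.04 log2 CPM per kilobase in the knockout average, PLK4 3.86 and SASS6 2.93. In the reconstitution average STIL had 3.33, PLK4 2.44 and SASS6 1.23, in the same order. The counting errors of their differences between the averages were 0.13, 0.18 and 0.25 log2. Their GC contents fell in that order too, at 42.1%, 38.4% and 34.9%, and whether the distances between them changed was not tested.

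**Figure D2:**
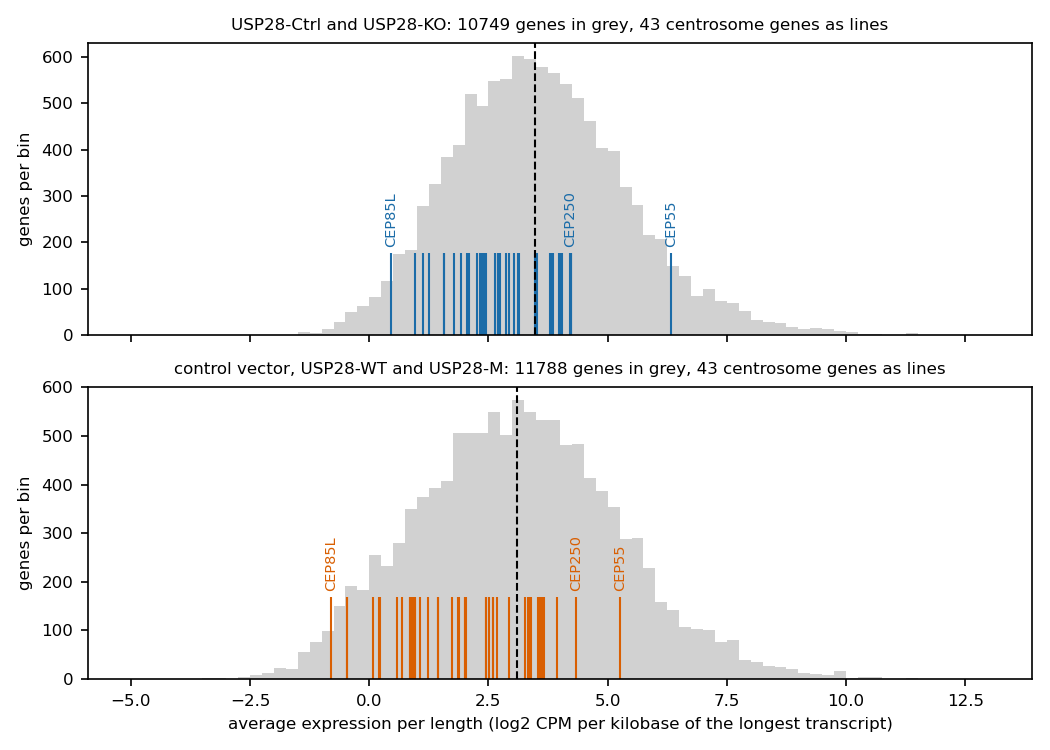
Number of genes (y axis) by average expression per length (x axis, log2 CPM per kilobase of the longest transcript) for each average; grey bars are all genes, coloured lines the 43 centrosome genes and the dashed line the median of all genes. CEP55 stands alone on the right at 6.32 and 5.27, and most other lines lie left of the median.

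The averages were then set beside each other gene by gene. They come from different libraries that the authors normalized separately, so the difference, reconstitution average minus knockout average, is a description with no test. Of the 43 genes, 36 (83.7%) had the lower value in the reconstitution average, as did 59.9% of all 10976 genes listed in every table. The median difference was -0.74 log2 over the centrosome genes and -0.12 over all genes. A difference of -1 or below was found in 17 centrosome genes (39.5%) and in 9.02% of all genes. For 11 of the 43 genes the difference was within the counting error, measured from 0 here and for the single genes above. Measured from the median of all genes, -0.12, this held for 9 of the 43, so which genes lie within it depends on the reference. The counting error lay between 0.066 and 0.40 log2 over the 43 genes. How often the same held over all genes was not worked out, so both numbers describe the centrosome genes only. The lowest differences were those of CEP290 (-3.16), CEP162 (-2.52) and CEP83 (-2.15), and among the highest were those of CEP41 (0.19) and PCNT (0.13). Counting errors were 0.26, 0.34 and 0.30 for the former and 0.29 and 0.10 for the latter. Across the 43 genes the averages had a Pearson r of 0.833 and a Spearman's rho of 0.796. Across 10635 genes r was 0.937 and rho 0.933. Genes are not independent replicates and share libraries, depth and composition.

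The difference ran along with transcript GC content, whose part in it was not tested. Among the 43 genes Spearman's rho between GC content and difference was 0.745 and Pearson's r 0.584, and across 10635 genes rho was 0.475 and r 0.411. Of the centrosome genes, 16 had a GC content under 40%, among them PLK4, SASS6, NEDD1, CEP135 and CEP290, and their median difference was -1.35. The 1875 genes of the series in that class had a median of -0.68. From 40% to 45% there were 14 centrosome genes, STIL, CENPJ and CEP152 among them, with a median of -0.88 against -0.27 for all genes of the class. From 45% to 50% there were 4 genes, CDK5RAP2, CEP19 and CEP68 among them, with a median of 0.038 against 0.011. At 50% and above, 9 genes, with PCNT, CEP250 and CEP164 among them, had a median of -0.13 against 0.074. CEP170B, the most GC-rich at 66.2%, had a difference of -0.92 and stood apart from that class. Coding length showed no such course, with a rho of -0.069 across the 43 genes. The median difference of all genes in 20 bins of GC content was subtracted in a further step, which was chosen after the values had been seen. The median of the 43 then was -0.37, 33 were negative and 10 positive. By design the step leaves about as many of all genes above as below. Among the 43 genes, Spearman's rho between GC content and the corrected difference was still 0.464, against 0.015 across 10635 genes. The step thus did not remove the course with GC content within the centrosome genes, and the value of -0.37 is not free of it. CEP290 had -2.33, CEP162 -1.85, CEP152 -1.63 and CEP83 -1.54 on this scale, and CEP192 (0.22), TRIM37 (0.17) and CEP41 (0.42) were positive. The libraries and the conditions differ between the averages at once and cannot be told apart.

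**Figure D3:**
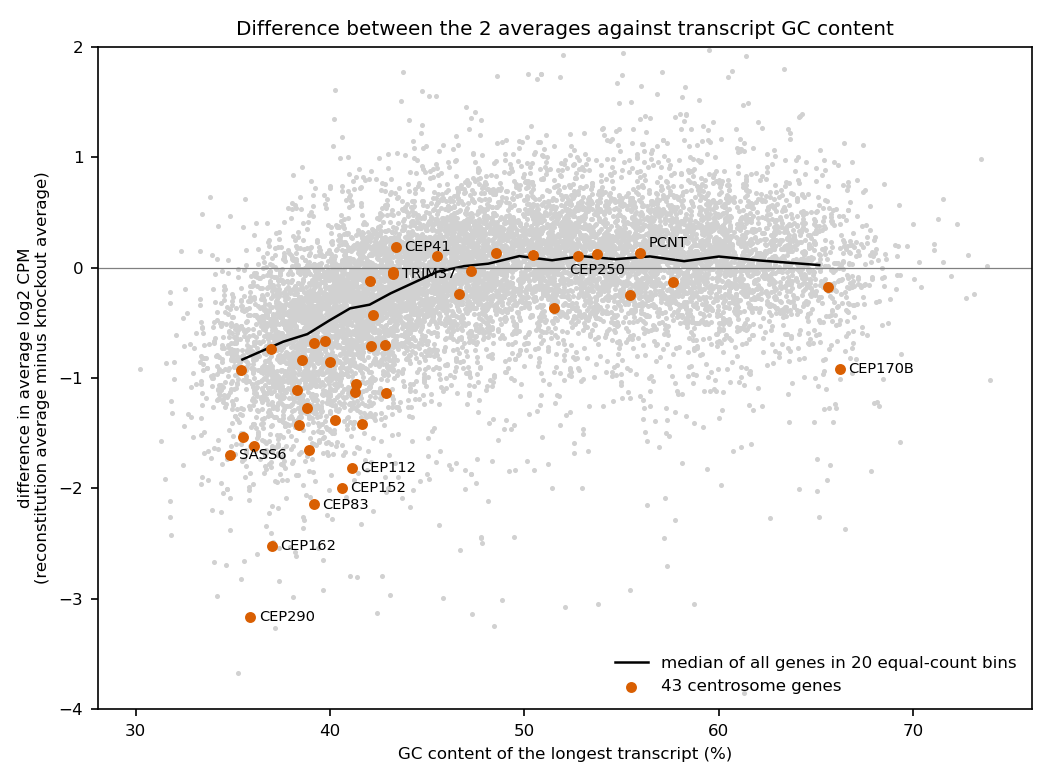
Difference in average log2 CPM (y axis, reconstitution average minus knockout average) against the GC content of the longest transcript (x axis, %); grey points are the other 10592 genes, of which 12 lie outside the axis, orange points the 43 centrosome genes and the line the median of all genes in 20 bins of GC content. CEP290 (-3.16) and CEP162 (-2.52) lie far under the line on the AT-rich side, and PCNT and CEP250 (0.13 each) lie near it.

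Other genes of mitotic surveillance, and genes of a separate response to extra centrosomes, were listed too. CRADD, of the latter, was not listed in the knockout table. USP28 (NCBI gene 57646) stood at 5.15 log2 CPM in the knockout average, which mixes cells with and without the guide RNA. It stood at 9.79 in the reconstitution average, which includes cells that carry USP28 on the vector. TP53BP1 had 6.30 and 6.38 log2 CPM, and MDM2, a ubiquitin ligase, 6.57 and 6.09. CDKN1A, which encodes the cell cycle inhibitor p21, had 4.13 and 5.39. The PIDDosome, which responds to extra centrosomes, is built from PIDD1 (5.63 and 4.36), CRADD (2.91 in the reconstitution average) and the protease CASP2 (5.15 and 4.79). ANKRD26, which tethers PIDD1 to distal appendages, had 5.21 and 2.80 log2 CPM, with a GC content of 37.0%. PIDD1 had a difference of -1.27 log2 at a GC content of 66.0%.

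Reads of some centrosome genes cannot be assigned with certainty. Of the words of 31 bases in the longest CEP170 transcript, 51.7% also occur in transcripts of other genes, nearly all of them in the pseudogene CEP170P1. CEP170P1 was listed with 3.55 and 2.84 log2 CPM, so the value of CEP170 is uncertain. CEP76 shared 23.3% of its words and CEP295 14.1%. The other 40 genes shared under 10%, and 17 of the 43 shared none. Genes with the current symbols CEP15, CEP20 and CEP43 were listed under older names and are not among the 43.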

How the data were processed

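Total RNA of HLF cells was sequenced. Per the submitters' processing notes, the tools were bcl2fastq 2.20, STAR 2.5.4 and edgeR 3.26.8, with build hg19. Counting, strand and the filter on low genes are not given in the sources used here. The authors deposited tables of comparisons that hold a log2 average of CPM over all libraries of a fit beside fold changes, F statistics and p values of their comparisons. Only the log2 averages were used. The header of 1 table is shifted by 1 field against its rows.

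Lengths, GC content and coding exons came from GENCODE release 29 (GRCh38), matched by NCBI gene ID or symbol for 96.8% and 95.5% of the genes of the tables and for all 43 centrosome genes. A level per kilobase is the log2 CPM minus log2 of the length in kilobases. Counting intervals (95%) used reads worked out from the steps of low CPM values, and include the prior count of the authors' tool. The step search and the GC correction were run on simulated data, with values close to whole reads and a shift unrelated to GC content. The data here differ in both respects, so that run does not show how well either step worked on them. Centrosome genes were named with their values, except that some selected genes are not reported here. Singled out were the 5 highest and 5 lowest per kilobase and the 3 largest differences in each direction. Genes and lists were chosen with earlier results of these data known. Alternatives were other lengths, filters and background genes. The software was Python 3.11.15 with scipy 1.17.1, pandas 2.3.3 and numpy 2.4.6, and matplotlib 3.10.9 for plots.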

Additional observations from a re-analysis of the deposited data

How the results depend on the processing

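Counts of centrosome genes at or above the median level per kilobase were 13 of 43 in the knockout average and 12 in the reconstitution average. Coding length in place of the longest transcript gave 4 and 3. With merged exons, no length scaling, a minimum of 2 log2 CPM, genes listed in all tables, protein coding genes or without 3 genes of shared sequence, the counts lay between 12 and 19 and between 11 and 15. The median difference of -0.74 log2 became -0.62 after subtraction of the median of all genes, -0.72 with a minimum of 2 log2 CPM and -0.79 without the genes of shared sequence. With the median of 20 GC bins subtracted, a step added after the data were seen, it was -0.37. The centrosome genes kept a course with GC content after this step. No paired analysis was possible because no value per sample was used, and no replicate could be left out. Low levels limit precision, since the fewest reads behind a centrosome gene were 64 and 114.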
